A study of Mus musculus with 16 samples.

Results

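The interferon-induced genes were followed in the liver and kidney of mice kept under a normal or a repeatedly shifted light–dark cycle. Of 42 named genes, 41 had a row among the 32989 genes of each table, and Gbp6 had none. The members were matched by symbol, and of the 2 rows named Ifi47 the one with the higher mean was used. They were read in 5 groups by role, namely 10 Ifit, Oas and Mx genes (type I-like), 9 Gbp and Irg GTPases (interferon gamma-like), 7 transcription factors and feedback inhibitors, 4 nucleic acid sensors and 11 other interferon-induced genes. All animals were male C57BL/6J mice, conditioned for 85 weeks and aged 97 weeks. LD-conditioned mice (L63, L65, L86 and L104) stayed under a fixed light–dark cycle, and in ADV-conditioned mice (A75, A91, A94 and A115) the cycle was advanced by 8 hours every 4 days. Both organs of each of the 8 mice were measured by poly(A)-selected stranded RNA-seq, which makes 16 libraries and 4 mice per group. The mice of both conditions are those that were alive and, by the paper, without apparent weakness or injury at this age. The 2 providers that sequenced the libraries are not tied to single libraries in the labels, so that a provider cannot be told apart from a mouse.

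Interferons are secreted proteins by which a cell that senses a virus or another microbe alerts its neighbours. Type I interferons act through the receptor IFNAR1/IFNAR2 and the factor ISGF3, which holds STAT2 and IRF9 and binds an interferon-stimulated response element in the promoters of Ifit, Oas and Mx genes. Interferon gamma, made mainly by T cells and NK cells, acts through gamma-activated sites in promoters, and in mice the Gbp and Irg GTPases that attack vacuoles holding intracellular microbes are its best known targets. The groups overlap, since many of these genes answer to both kinds of interferon, and hepatocytes, tubule cells and resident macrophages can all respond.

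The values are FPKM, that is, fragments divided by the exon length of the gene and by the total of the library, so that levels of different genes can be compared. The fragments that fell on genes numbered 21092501 to 24285055 per liver and 15688495 to 18043306 per kidney, and 1 fragment in 1 kb of exon amounted to between 0.0380 and 0.0440 FPKM in the liver and between 0.0508 and 0.0584 FPKM in the kidney. Hepatocyte markers summed to between 63323 and 77399 FPKM in the livers, where 6 of 10 kidney markers were at 0 in every library, and tubule and podocyte markers summed to between 29495 and 42031 FPKM in the LD kidneys. In the ADV kidneys the latter were at 21133, 32123, 23229 and 47386 FPKM in A75, A91, A94 and A115, which is below the LD range in A75 and A94 and above it in A115. The liver of A94 and the kidney of A115 stood apart over all genes. The mean correlation of the A94 liver with the other livers was 0.941, against 0.977 to 0.982 for the rest. That of the A115 kidney with the other kidneys was 0.858, against 0.932 for A94 and 0.946 to 0.964 for the rest, and in this library mitochondrial genes took 33.8% of the fragments against 15.7% to 18.0% in the LD kidneys. The kidneys of A75, A91 and A94 lay below that range, at 10.7%, 13.1% and 9.43%. The A94 liver, at 5.84%, lay below the LD livers (6.81% to 8.81%), and the A91 liver, at 9.52%, lay above them. Values without A94, or without A115 in the kidney, are therefore given beside the fold changes that leaving out the mouse moved most.

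To see what the promoters of these genes share, the 250 bases before the start of each gene (RefSeq, GRCm38.p6) were searched on both strands for an interferon response core, GAAANNGAA, and for a gamma-activated site, TTCNNNGAA. The letters of a core can overlap a neighbouring core or a gamma-activated site, and each match was counted. A promoter whose start lay within 500 bases of the start in the table was found for 30 of the 41 members. The core occurred in 17 of these 30 promoters (56.7%) against 6.88% of 17200 promoters, and 2 or more cores in 8 of them (26.7%) against 0.552%. The gamma-activated site occurred in 9 of 30 (30%) against 6.91%, both motifs in 6 and neither in 10. Of the 7 Gbp and Irg promoters, 6 had a core and 4 had both motifs, and of the 7 Ifit, Oas and Mx promoters, 4 had a core and 1 had both. These are matches of letters in a window, and binding was not measured.

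In each role group, the matching members with the largest liver fold change are printed 5′ to 3′ on the strand of the gene, with 15 bases on each side where the window allows. They show how the 2 motifs are arranged in the 2 families and in the factors that regulate them, and capitals mark the matched letters.
Tgtp1 (chr11:48992300-48992349, − strand): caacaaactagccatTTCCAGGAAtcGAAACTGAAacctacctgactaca
Igtp (chr11:58199496-58199545, + strand): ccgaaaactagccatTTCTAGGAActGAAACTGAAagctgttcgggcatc
Ifit1 (chr19:34640765-34640828, + strand): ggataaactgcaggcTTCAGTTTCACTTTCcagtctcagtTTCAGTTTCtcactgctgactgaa
Oas1a (chr5:120907526-120907638, − strand): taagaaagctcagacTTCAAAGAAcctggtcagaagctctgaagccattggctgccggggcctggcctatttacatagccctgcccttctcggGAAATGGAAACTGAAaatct
Isg15 (chr4:156200861-156200911, − strand): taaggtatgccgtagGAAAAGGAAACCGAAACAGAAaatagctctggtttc
Trim30a (chr7:104465205-104465243, − strand): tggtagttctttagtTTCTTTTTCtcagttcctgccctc
Ifih1 (chr2:62646344-62646382, − strand): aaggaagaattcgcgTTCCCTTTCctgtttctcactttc
Irf1 (chr11:53769909-53769947, + strand): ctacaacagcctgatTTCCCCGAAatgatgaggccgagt
Irf8 (chr8:120736172-120736228, + strand): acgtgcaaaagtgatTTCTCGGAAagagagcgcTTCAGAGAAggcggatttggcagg
In Tgtp1 and Igtp a gamma-activated site was followed, after 2 further bases, by a response core, and the same spacing was found in Irgm2. The printed stretches of Tgtp1 and Igtp had 34 of 50 bases in common (68.0%). Ifit1 and Isg15 each had 3 cores and no gamma-activated site, whereas Irf1 and Irf8 had gamma-activated sites and no core. The nearest core lay 14 bases before the start in Oas1a, 34 in Igtp, 66 in Isg15, 77 in Tgtp1 and 84 in Ifit1.

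The first comparison asked whether the members differed between ADV- and LD-conditioned livers. All 40 members that passed the filter on low values had a higher mean in the ADV condition, but none of the differences passed the test, and 1 mouse, A94, had the highest level of each. Socs1, a feedback inhibitor of JAK kinases, was below the filter. The filter averaged all livers, so that 1 high mouse can carry a gene over it. Mx1 passed only through A94, which had 109.5 fragments against 4.5 to 14 in the other livers. limma was fitted to log2(FPKM + 0.1) over all 12835 liver genes, and fold changes are given on this scale, which understates the change of genes with low FPKM. At a Benjamini-Hochberg adjusted p under 0.05, 0 of 40 members were called (background 0.00779%, 1 gene), and the smallest adjusted p of a member in limma was 0.363, for Ddx58. At an unadjusted p under 0.05, 4 members were higher in the ADV condition (10% of members, background 8.65%) and 0 were lower (background 3.13%). Over both directions the count moved with single mice. It was 10 without A91 (background 17.3%), 8 without A94 (background 14.4%), 2 without L86 (background 8.77%), 2 without L104 (background 7.74%), 1 without L63 (background 8.62%) and 1 without L65 (background 8.34%). In a joint fit of both organs, with or without the mouse as a replicate block, Ddx58 alone kept an unadjusted p under 0.05, and Irgm2, Ifi47 and Bst2 did not. In bulk tissue, more cells of a type and more RNA per cell cannot be told apart.

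The median log2 fold change was 0.69 over the 40 members and 0.10 over all liver genes tested, of which 65.7% were higher. It was 0.67 for the Ifit, Oas and Mx genes, 0.76 for the Gbp and Irg GTPases, 0.48 for the factors and inhibitors, 0.79 for the sensors and 0.54 for the other members. Without A94 it was 0.13 over the members and 0.03 over all genes, and 28 of 40 members and 54.5% of all genes were higher. The 2 main families then lay apart, with a median of −0.07 and 3 of 10 genes higher for the Ifit, Oas and Mx genes, and a median of 0.26 and 8 of 9 genes higher for the Gbp and Irg GTPases. The difference between the families was not tested.

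**Figure D1:**
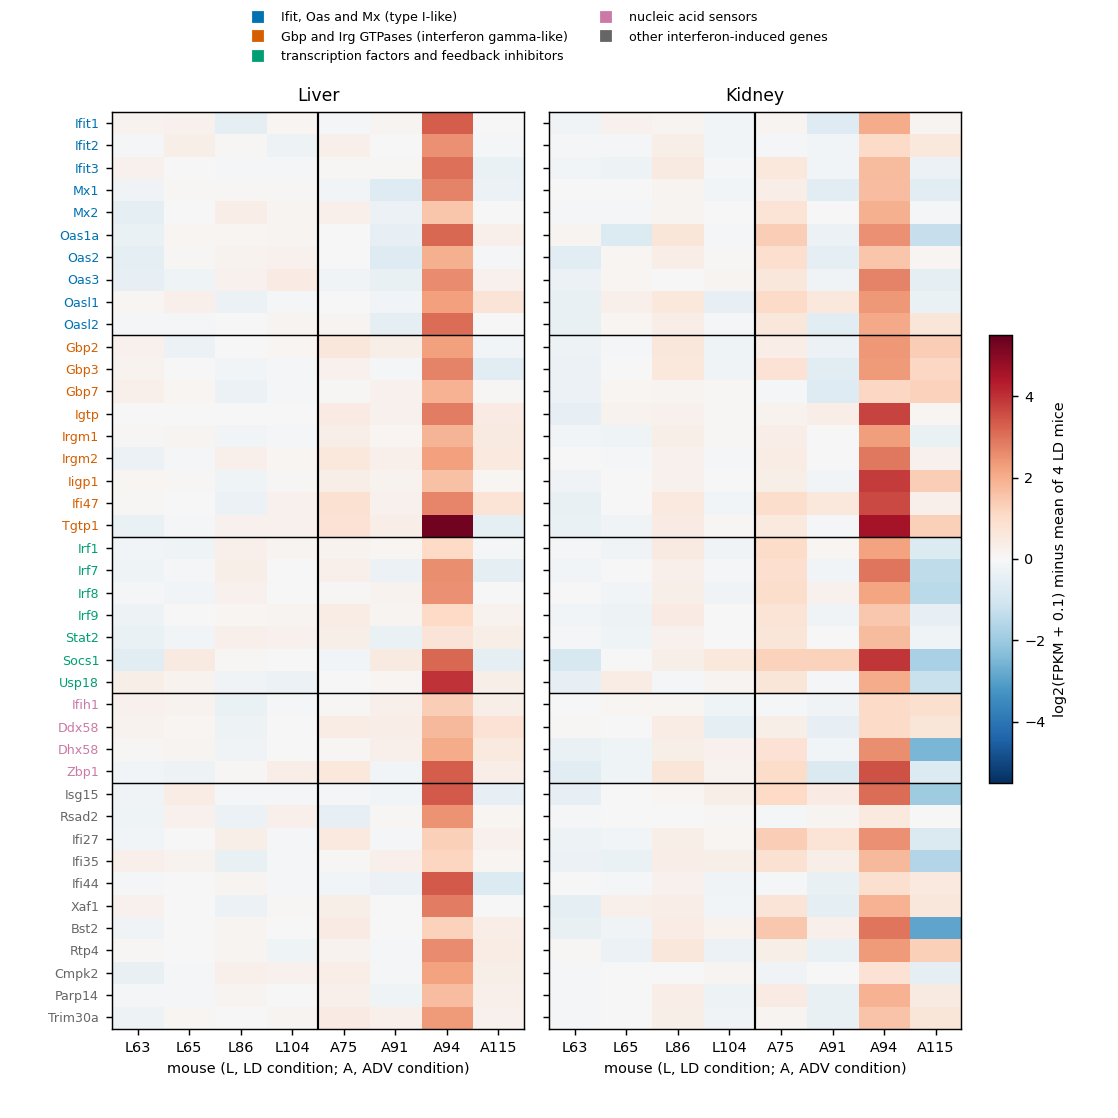
Heat map of the 41 members (rows, coloured by role) in the 8 mice (columns) of each organ. Colour is log2(FPKM + 0.1) minus the mean of the 4 LD mice, red above and blue below it. The A94 column is red for every member in both organs, and in the kidney A115 the rows are partly red and partly blue.

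Among the Gbp and Irg GTPases, Igtp, Irgm2 and Iigp1 were higher in each ADV liver than in each LD liver, and Irgm2 and Ifi47 had an unadjusted p under 0.05. Igtp (Irgm3, chr11:58199556-58207592 in mm10, + strand), which sits on the membranes of vacuoles and lipid droplets, had 11.2, 11.7, 11.4 and 11.6 FPKM in L63, L65, L86 and L104, and 15.8, 13.4, 82.3 and 15.9 FPKM in A75, A91, A94 and A115. The LD livers had an SD of 0.218 FPKM (n = 4), and all ADV livers lay above them. The log2 fold change was 0.99 (SE 0.50, adjusted p = 0.451 in limma), and without A94 it was 0.38 (SE 0.09) at an unadjusted p of 0.00264 in limma.

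Irgm2 (chr11:58214977-58222783, + strand), a regulatory GTPase that holds the effector GTPases inactive on the cell's own membranes, had 7.38, 8.81, 11.17 and 9.80 FPKM in the LD livers and 13.8, 11.19, 44.0 and 13.5 FPKM in the ADV livers. The groups did not overlap, but A91 and L86 were nearly equal. The log2 fold change was 0.91 (SE 0.38, unadjusted p = 0.0388, adjusted p = 0.407 in limma), and 0.47 (SE 0.15) without A94. Iigp1 (Irga6), an effector that breaks open vacuoles, was the most abundant GTPase of the liver, at 98.3, 96.2, 78.5 and 97.0 FPKM in the LD mice and 114, 107, 282 and 99.5 FPKM in the ADV mice. The margin between the groups was again small, from 98.3 in L63 to 99.5 in A115, and the log2 fold change was 0.56 (SE 0.30, adjusted p = 0.467 in limma) and 0.21 without A94.

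Ifi47 (Irgd, chr11:49087017-49096987, + strand), a further GTPase of the family, had 5.72, 5.63, 4.41 and 6.602 FPKM in the LD livers and 9.87, 6.48, 36.1 and 9.51 FPKM in the ADV livers. A91 lay inside the LD range and the other 3 above it. The log2 fold change of 1.12 (SE 0.45, unadjusted p = 0.0319, adjusted p = 0.390 in limma) was 0.61 (SE 0.18) without A94. Tgtp1 (Irgb6) had the largest log2 fold change of all members, 1.498, with an SE of 1.05. It had 0.633, 0.780, 1.003 and 1.003 FPKM in the LD livers and 1.51, 1.12, 37.4 and 0.576 FPKM in the ADV livers, and without A94 the log2 fold change was 0.23. Its near-identical neighbour Tgtp2 was at 6.39 FPKM in A94, and because reads with a low mapping quality had been removed, the split between the 2 genes is uncertain.

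The remaining members of this family were Irgm1, Gbp2, Gbp3 and Gbp7, with log2 fold changes between 0.57 and 0.76. The guanylate binding proteins coat and help to lyse bacteria and vacuoles, and Irgm1 is a regulator like Irgm2. For Irgm1 the value was 0.70 (SE 0.33), and without A94 it was 0.30 at an unadjusted p of 0.0306 in limma. Without A94, Gbp2 and Gbp7 were at 0.26 and 0.12. Gbp3 was the only one of the 9 that was lower without A94, at a log2 fold change of −0.15.

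**Figure D2:**
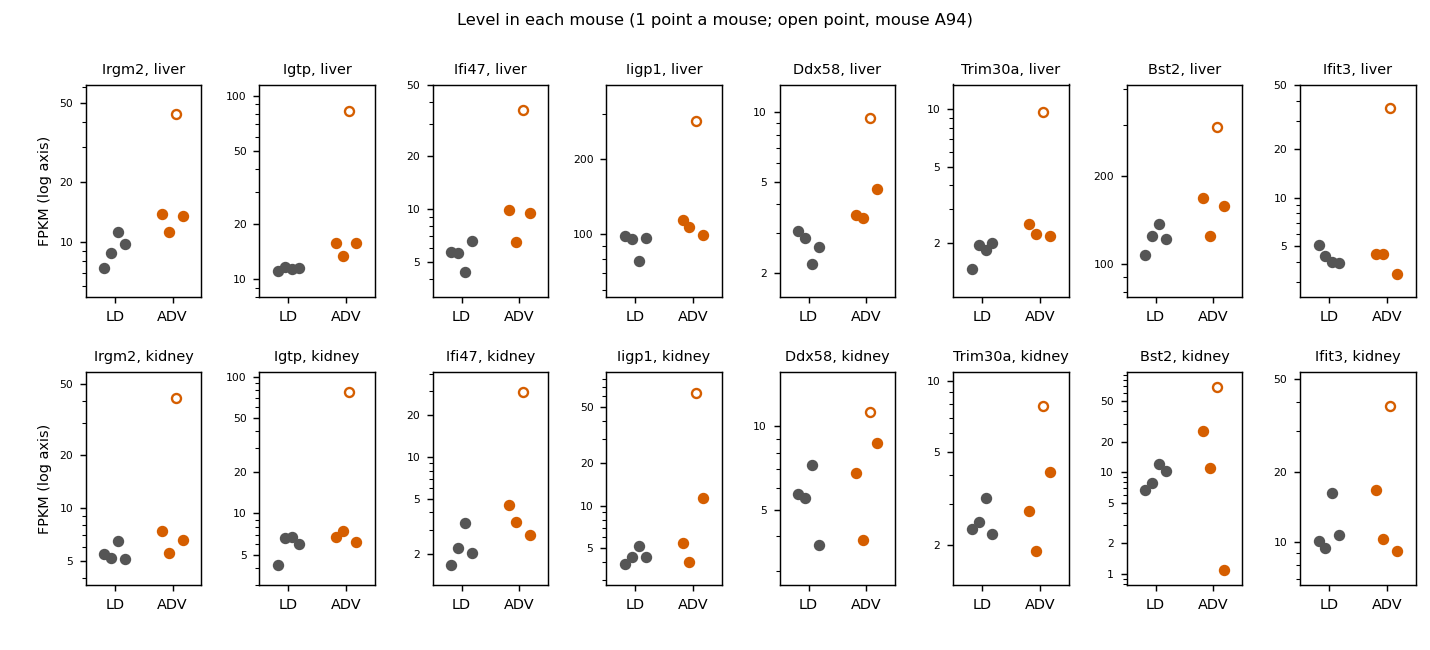
FPKM on a log axis of 8 members in the liver (upper row) and kidney (lower row), with 1 point per mouse, LD in grey and ADV in orange, and A94 as an open point. Igtp, Irgm2, Iigp1, Ddx58 and Trim30a do not overlap between the groups in the liver, and each member overlaps in the kidney.

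None of the 10 Ifit, Oas and Mx genes reached an unadjusted p under 0.05 in the liver, and all 10 overlapped between the groups. Oasl1, an inhibitor of Irf7 translation, had the smallest unadjusted p, 0.150 in limma. It had 3.41, 3.84, 2.47 and 2.93 FPKM in the LD livers and 3.22, 2.798, 15.1 and 5.23 FPKM in the ADV livers, and its log2 fold change was 0.71 (SE 0.46) and 0.21 without A94. Ifit3, which stabilises the binding of Ifit1 to viral RNA caps, had the highest mean of the family. It had 5.13, 4.38, 4.00 and 3.97 FPKM in the LD livers and 4.48, 4.50, 36.1 and 3.37 FPKM in the ADV livers, so that A75 and A91 lay within the LD range, A115 below it and A94 above it. The log2 fold change of 0.69 (SE 0.64) was −0.09 (SE 0.15) without A94. Ifit3 also has a near-identical copy, Ifit3b, and Oas1a has one in Oas1g, so that their levels are uncertain in the same way as that of Tgtp1.

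In A91, 4 of these 10 genes lay below all LD livers (Mx1, Oas1a, Oas2 and Oasl2), while 5 of the 9 Gbp and Irg GTPases lay above all of them. In A75, 1 of 10 and 8 of 9 lay above, and in A115 2 of 10 and 5 of 9. In A115, however, Ifit3 and Mx1 of the first family and Gbp3 and Tgtp1 of the second lay below all LD livers, as did 18.2% of all genes. In A94 all genes of both families lay above all LD livers. In A91, 23.5% of all liver genes lay below all LD livers. The share of all liver genes that lay above all LD livers was 26.8%, 24.2%, 59.9% and 37.8% in these mice, taken as A75, A91, A94 and A115.

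Among the transcription factors and inhibitors, Irf9, the DNA-binding subunit of ISGF3, had the smallest unadjusted p in limma, 0.0502. It had 7.44, 9.07, 9.70 and 9.93 FPKM in the LD livers and 12.1, 9.89, 19.0 and 10.2 FPKM in the ADV livers, and only A91 lay inside the LD range. Its log2 fold change was 0.46 (SE 0.20) and 0.25 without A94. Irf7, the factor that amplifies the type I response, was the most abundant of the group and had 16, 17.4, 23.0 and 18.8 FPKM in the LD livers and 22.9, 14.9, 109 and 12.9 FPKM in the ADV livers. A91 and A115 lay below the LD range, and the log2 fold change of 0.50 (SE 0.57) was −0.18 without A94. Usp18, which removes ISG15 from proteins and blocks IFNAR2 signalling, reached 26.3 FPKM in A94, 16.2 times the LD mean, and was between 1.58 and 2.06 FPKM in the other ADV livers against 1.28 to 2.03 in the LD livers. Irf1, Irf8 and Stat2 had log2 fold changes of 0.33, 0.69 and 0.25, and of 0.067, 0.091 and 0.10 without A94. Socs1 had between 2 and 7.5 fragments in every liver but A94, which had 58.5 (2.11 FPKM).

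Of the 4 sensors, Ddx58 (RIG-I, chr4:40203777-40239825, − strand), which recognises viral RNA in the cytoplasm, had the smallest p of all members in the liver. It had 3.04, 2.85, 2.20 and 2.60 FPKM in the LD livers and 3.57, 3.47, 9.43 and 4.63 FPKM in the ADV livers. Every ADV liver was above every LD liver, and the log2 fold change was 0.84 (SE 0.29, unadjusted p = 0.0173 in limma) and 0.52 (SE 0.15, unadjusted p = 0.00735) without A94. Ifih1 (MDA5), which recognises long double-stranded RNA, was the most abundant sensor, with 4.46, 4.42, 2.91 and 3.68 FPKM in the LD livers and 3.94, 4.59, 9.996 and 4.73 FPKM in the ADV livers, and the groups overlapped at a log2 fold change of 0.49 (SE 0.28). Dhx58 (LGP2), which tunes Ddx58 and Ifih1, and Zbp1, a sensor of Z-form nucleic acid, had log2 fold changes of 0.73 and 1.03, and all 4 sensors remained higher without A94, by 0.20 to 0.52 on the log2 scale.

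Among the other members, Bst2 (tetherin, chr8:71534259-71537437, − strand), which holds budding virus at the cell surface, was the most abundant member of the liver and Trim30a (chr7:104409025-104465193, − strand), a regulator of innate signalling, did not overlap between the groups. Bst2 had 107, 125, 137 and 122 FPKM in the LD livers and 169, 125, 296 and 158 FPKM in the ADV livers, a log2 fold change of 0.54 (SE 0.23, unadjusted p = 0.0450, adjusted p = 0.414 in limma) and of 0.29 without A94. A91 was inside the LD range and the other 3 were above it. Trim30a had 1.46, 1.96, 1.84 and 2.01 FPKM in the LD livers and 2.51, 2.22, 9.60 and 2.17 FPKM in the ADV livers, a log2 fold change of 0.84 (SE 0.43) and of 0.33 (SE 0.15) without A94. Isg15, the ubiquitin-like modifier, was between 3.85 and 5.95 FPKM in the LD livers, and only A94, at 47.1 FPKM, lay above them, with A115 below at 3.23 FPKM. Ifi44 was the only one of the 12 members lower without A94 that had an unadjusted p under 0.05, with 0.859, 0.944, 1.04 and 0.830 FPKM in the LD livers and 0.810, 0.708, 10.5 and 0.505 FPKM in the ADV livers, so that its log2 fold change was 0.54 with all mice and −0.41 without A94 (SE 0.18, unadjusted p = 0.0459 in limma). Rsad2 (viperin), Ifi27, Ifi35, Xaf1, Rtp4, Cmpk2 and Parp14 had log2 fold changes between 0.41 and 0.80 with all mice, and between −0.096 and 0.23 without A94.

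Over all groups, 5 of 40 members were higher in each ADV liver than in each LD liver (12.5%, background 6.94%), and 0 were lower in each (background 1.89%). Without A94, 7 members had an unadjusted p under 0.05 in limma and were higher (17.5%, background 8.84%), namely Igtp, Irgm1, Irgm2, Ifi47, Ddx58, Bst2 and Trim30a, and Ifi44 was lower (background 5.55%).

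**Figure D3:**
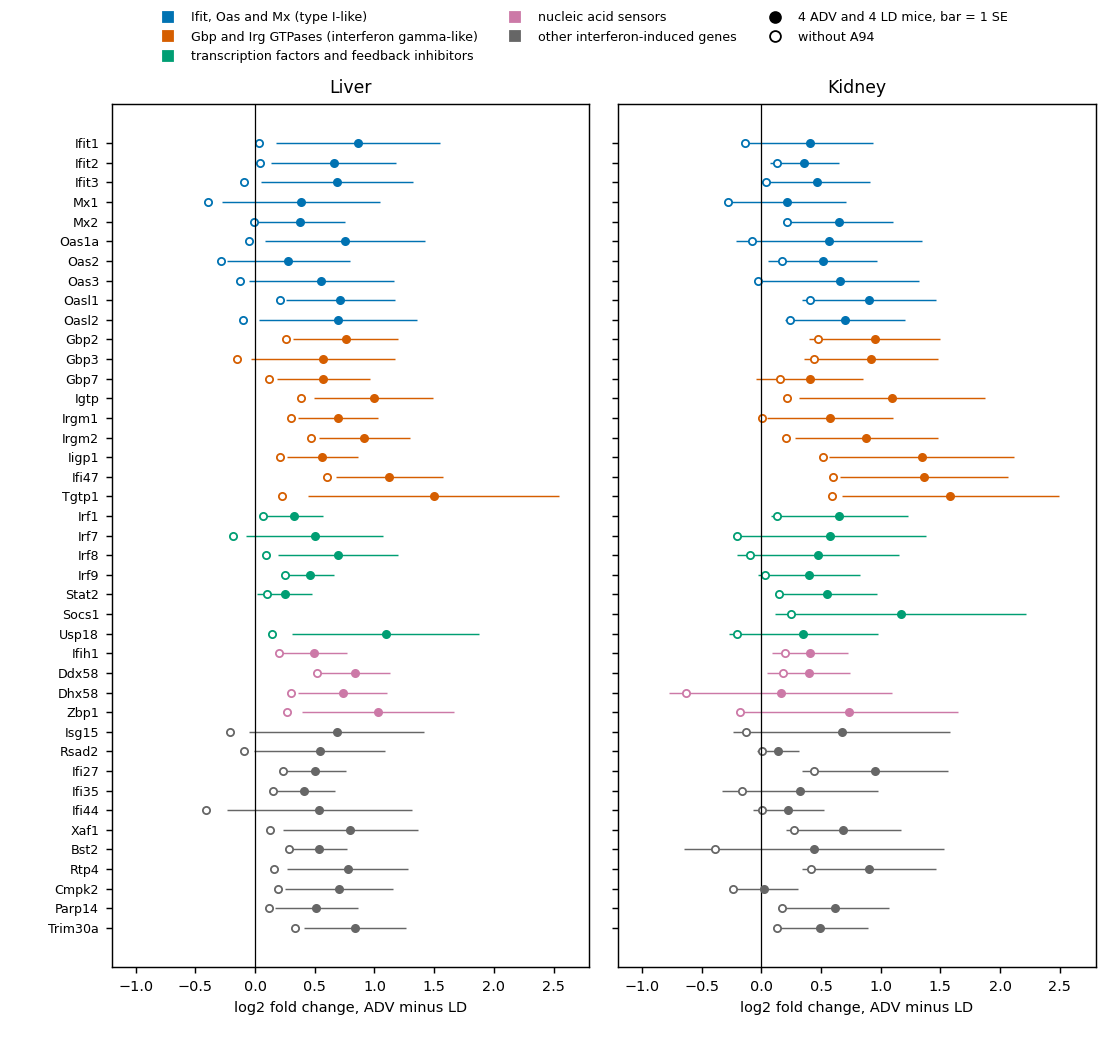
Log2 fold change (ADV minus LD, on log2(FPKM + 0.1)) of each member in the liver and kidney, with all 8 mice (filled points, bars of 1 SE) and without A94 (open points), coloured by role. All filled points lie above 0, and the open points of the Ifit, Oas and Mx genes lie around 0 in the liver while 8 of 9 of the Gbp and Irg GTPases lie above it.

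A94 had the highest level of the 8 mice for 40 of 40 members in the liver (background 49.7%) and for 40 of 41 in the kidney (background 26.2%). The exception was Gbp7 in the kidney, with 7.34 FPKM in A94 and 7.94 FPKM in A115. The counts include Mx1 in the liver and Socs1 and Oas3 in the kidney, which passed the filter through ADV mice. In the liver A94 exceeded the LD mean by a median of 5.54 times over the members and by 1.21 times over all genes, from 1.603 times for Stat2 to 43.7 times for Tgtp1. In the kidney the medians were 4.61 and 1.18 times, from 1.45 times for Rsad2 to 23.8 times for Tgtp1. By the median fold, the families ranked differently in the 2 organs of this mouse. It was 8.27 times for the Ifit, Oas and Mx genes and 4.88 times for the Gbp and Irg GTPases in the liver, and 4.23 and 7.52 times in the kidney. By the mean log2 difference from the LD mean, the families were nearly equal in the liver, at 2.62 and 2.61, and at 1.97 and 2.98 in the kidney. These are values of 1 mouse, with no replicate.

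The spread among the ADV mice was larger than among the LD mice for 40 of 40 members in the liver (background 76.5%) and 41 of 41 in the kidney (background 90.1%). The median SD of the log2 values of a member was 0.24 in the LD and 1.13 in the ADV livers, and 0.31 and 1.18 in the kidneys, against 0.17 and 0.27 over all liver genes and 0.18 and 0.57 over all kidney genes.

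Averaged per mouse as the log2 difference from the LD mean, the 40 liver members gave −0.07, 0.03, −0.01 and 0.05 in L63, L65, L86 and L104, and 0.23, −0.02, 2.37 and 0.12 in A75, A91, A94 and A115. All liver genes gave 0.45 in A94 and between −0.06 and 0.11 in the other mice. The Gbp and Irg GTPases gave 0.46, 0.21, 2.61 and 0.13 in the 4 ADV livers, and the Ifit, Oas and Mx genes 0.04, −0.30, 2.62 and 0.03. The highest LD values of these families were 0.066 and 0.080. In A115 the 0.13 of the Gbp and Irg GTPases was close to the 0.11 of all liver genes, which itself lay above the highest LD value of all genes, 0.034. In the kidney the members gave 0.60, −0.10, 2.23 and −0.20 in the ADV mice, and between −0.23 and 0.32 in the LD mice. All kidney genes gave 0.29, 0.087, 0.37 and −0.64 in the same 4 ADV mice. The highest LD kidney was that of L86, which was the highest of the 4 for 33 of 41 members and for 43.0% of all kidney genes.

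**Figure D4:**
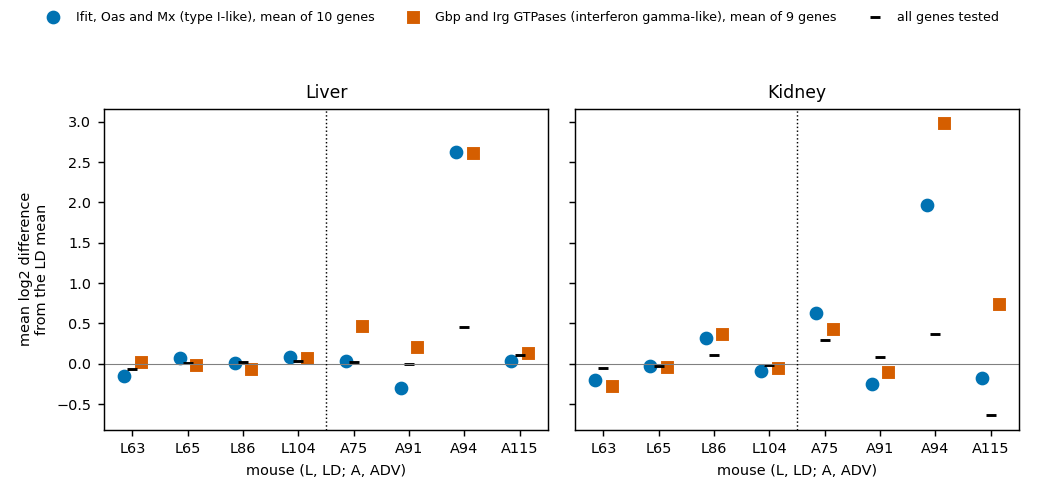
Mean log2 difference from the LD mean per mouse for the 10 Ifit, Oas and Mx genes (circles), the 9 Gbp and Irg GTPases (squares) and all genes tested (bars) in the liver and kidney. Both families reach about 2.6 in the liver of A94, and in its kidney the Gbp and Irg GTPases (2.98) lie above the Ifit, Oas and Mx genes (1.97).

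In the kidney the same question was asked of all 41 members, each of which passed the filter over all kidneys. The LD mice alone were below the filter for Socs1 and Oas3, with means of 0.267 and 0.0957 FPKM. Both genes passed through the ADV mice and are counted below. All 41 had a higher mean log2 level in the ADV condition, and 0 of 41 were called at an adjusted p under 0.05 (background 0%), at an unadjusted p under 0.05 (background 1.75% higher and 1.35% lower) or as non-overlapping (background 0.962% above and 1.83% below). The smallest unadjusted p of a member in limma was 0.0871, for Ifi47, and every adjusted p was 1 after rounding. The median log2 fold change was 0.58 over the members and −0.02 over all 14452 kidney genes tested, of which 46.4% were higher. It was 0.54 for the Ifit, Oas and Mx genes and 0.95 for the Gbp and Irg GTPases. Without A94 the members had a median of 0.13, against −0.10 over all genes, the Ifit, Oas and Mx genes 0.09 with 6 of 10 higher, and the Gbp and Irg GTPases 0.44 with 9 of 9 higher, although Irgm1 was at 0.0030. Of all kidney genes, 35.9% were higher without A94. Without A115 the median was 0.88 over the members and 0.20 over all genes, of which 67.7% were higher. Without A94 again 0 members had an unadjusted p under 0.05 (background 0.858% higher and 0.865% lower). Without A91, 9 members had one (22.0%, background 5.93%), namely Oasl2, Gbp2, Gbp3, Iigp1, Tgtp1, Ddx58, Xaf1, Rtp4 and Parp14, and without A115, 9 had one (background 29.5% higher and 7.59% lower), of which none were among those 9.

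Ifi47 had 1.67, 2.22, 3.34 and 2.04 FPKM in the LD kidneys and 4.49, 3.39, 29.4 and 2.72 FPKM in the ADV kidneys. Only A115 lay inside the LD range, and the log2 fold change was 1.36 (SE 0.70) and 0.60 (SE 0.30) without A94. Irgm1 was the most abundant GTPase of the kidney, with 18.2, 17.2, 24.8 and 20.7 FPKM in the LD mice and 25.5, 20.2, 98.8 and 15.7 FPKM in the ADV mice. The log2 fold change of 0.58 (SE 0.53) was 0.0030 without A94 and 0.89 without A115. Iigp1, at 3.84, 4.31, 5.16 and 4.34 FPKM in the LD kidneys, reached 63.6 FPKM in A94 and 11.4 FPKM in A115, and A75 and A91 had 5.48 and 4.00 FPKM. Tgtp1 had the largest log2 fold change of the kidney too, 1.58 (SE 0.91) and 0.59 without A94, with 61.9 FPKM in A94 and between 2.40 and 6.39 FPKM in the other ADV mice.

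Oasl1 had the smallest unadjusted p of the Ifit, Oas and Mx genes in the kidney, 0.147 in limma, with 0.633, 1.08, 1.35 and 0.599 FPKM in the LD mice and 1.88, 1.35, 4.93 and 0.641 FPKM in the ADV mice, a log2 fold change of 0.90 (SE 0.56) and of 0.41 without A94. Ifit3 had the highest level, with 10.1, 9.43, 16.2 and 10.8 FPKM in the LD mice and 16.8, 10.3, 38.3 and 9.20 FPKM in the ADV mice, a log2 fold change of 0.47 (SE 0.44), of 0.039 without A94 and of 0.72 without A115. In both genes A75 and A94 were the 2 highest kidneys, and the groups overlapped. A75 lay above all LD kidneys for 29 of 41 members (51.8% of all kidney genes did), among them 8 of 10 Ifit, Oas and Mx genes.

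Of the factors, Stat2 had the smallest unadjusted p, 0.219 in limma, with 2.65, 2.32, 3.30 and 2.79 FPKM in the LD kidneys and 4.46, 2.68, 9.45 and 2.39 FPKM in the ADV kidneys, a log2 fold change of 0.55 (SE 0.41) and of 0.15 without A94. Irf1, an early target of interferon gamma and an activator of Gbp genes, was the most abundant, with 6.69, 6.18, 9.97 and 6.14 FPKM in the LD kidneys and 14.5, 7.65, 33.4 and 4.23 FPKM in the ADV kidneys, a log2 fold change of 0.65 (SE 0.57), of 0.13 without A94 and of 1.12 without A115. A115 was inside the LD range for Stat2 and below it for Irf1. In the kidney Socs1 had between 2 and 9 fragments in the LD mice, and 16, 15.5, 122 and 0 fragments in A75, A91, A94 and A115.

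Of the sensors, Ifih1 had 2.79, 3.08, 3.07 and 2.39 FPKM in the LD kidneys and 2.61, 2.47, 5.89 and 5.26 FPKM in the ADV kidneys, a log2 fold change of 0.41 (SE 0.32), of 0.20 without A94 and of 0.25 without A115. Ddx58, which did not overlap in the liver, did in the kidney, with 5.71, 5.49, 7.25 and 3.74 FPKM in the LD mice and 6.79, 3.87, 11.2 and 8.73 FPKM in the ADV mice, a log2 fold change of 0.40 (SE 0.35) and of 0.18 without A94. Dhx58 had between 16 and 26 fragments in the LD kidneys, 154.5 in A94 and 0 in A115. For Dhx58 the log2 fold change was 0.16 (SE 0.93) with all mice, −0.63 without A94 and 1.06 without A115.

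Among the other members, Rtp4, a chaperone and regulator of the type I response, had 3.10, 2.34, 4.71 and 2.35 FPKM in the LD kidneys and 3.75, 2.30, 15.8 and 7.55 FPKM in the ADV kidneys, a log2 fold change of 0.90 (SE 0.56) and of 0.42 without A94. Ifi27, a mitochondrial protein, was the most abundant member of this group, with 11.04, 11.7, 16.3 and 14.4 FPKM in the LD kidneys and 34.0, 22.6, 74.9 and 7.54 FPKM in the ADV kidneys. For Ifi27, 3 ADV kidneys lay above the LD range and A115 below it, and the log2 fold change was 0.95 (SE 0.61) and 0.44 without A94. Rsad2 moved least in A94, from an LD mean of 7.68 ± 0.359 FPKM (SD, n = 4) to 11.1 FPKM.

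The A115 kidney divided the members. Of 41, 15 lay above all LD kidneys, among them Gbp2, Gbp3, Gbp7, Iigp1, Tgtp1, Ifih1 and Ddx58, and 19 lay below all of them, among them Irf1, Irf7, Irf8, Isg15, Ifi27, Ifi35 and Bst2. Over all kidney genes, 24.0% lay above and 59.1% below in this library. Bst2 had 1.09 FPKM in A115 against 6.68 to 11.9 in the LD kidneys, and 25.2, 10.9 and 68.7 FPKM in A75, A91 and A94. Without A115, 1 member, Ifi27, passed the adjusted threshold (log2 fold change 1.54, adjusted p = 0.0241 in limma), as did 18.9% of all genes. At an unadjusted p under 0.05, 9 members were higher (22.0%, background 29.5%) and 0 lower (background 7.59%), namely Oasl1, Ifi47, Irf1, Irf8, Socs1, Isg15, Ifi27, Ifi35 and Bst2. With scaling by the median ratio in addition, Ifi27 was called again (log2 fold change 1.34, adjusted p = 0.0321 in limma, background 16%), and the same 9 members were higher (background 17.4%) and 0 lower (background 18.7%). At the adjusted threshold the share of members called was thus below that of all genes under both settings.

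The next comparison asked whether the effect of the ADV condition on a member differed between the organs of the same mice. In a fit over all 16 libraries with an interaction of organ and condition, 0 of 40 members passed an adjusted (background 0%) or unadjusted p under 0.05 (background 3.46%), and the smallest unadjusted p in limma was 0.260. The liver minus kidney differences in log2 fold change lay between −0.78 and 0.74, with SEs from 0.44 to 1.53. This fit treated the libraries as independent, so that the SEs do not use the pairing of the 2 organs of a mouse.

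The levels in the LD mice show how the members are used without the phase shifts, as a description, since the 2 tables were made per organ and were not scaled to each other. Every LD liver was above every LD kidney for 15 of 40 members (37.5%, background 13.2%), and below for 13 (32.5%, background 64.1%). Iigp1 differed most, with 92.5 ± 9.39 FPKM in the liver and 4.42 ± 0.548 FPKM in the kidney (SD, n = 4), 21.0 times. Bst2 was 13.4 times, Mx2 5.34 times, Ifi27 4.96 times and Irf7 3.88 times higher in the liver, where the value for Mx2 rests on 9 to 11.5 fragments in each LD kidney. In the other direction, Rsad2 was 7.45 times, Cmpk2, its neighbour in the genome, 5.47 times, Ifit2 5.36 times and Ifi44 5.26 times higher in the kidney. Bst2, Iigp1 and Ifi27 were the 3 highest members in the liver, and Irgm1, Ifi27 and Ifit3 in the kidney. Oas2, Oas3, Mx1 and Socs1 were below 0.5 FPKM in the LD mice of both organs. The strain C57BL/6J is known to carry a defective Mx1 allele.

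**Figure D5:**
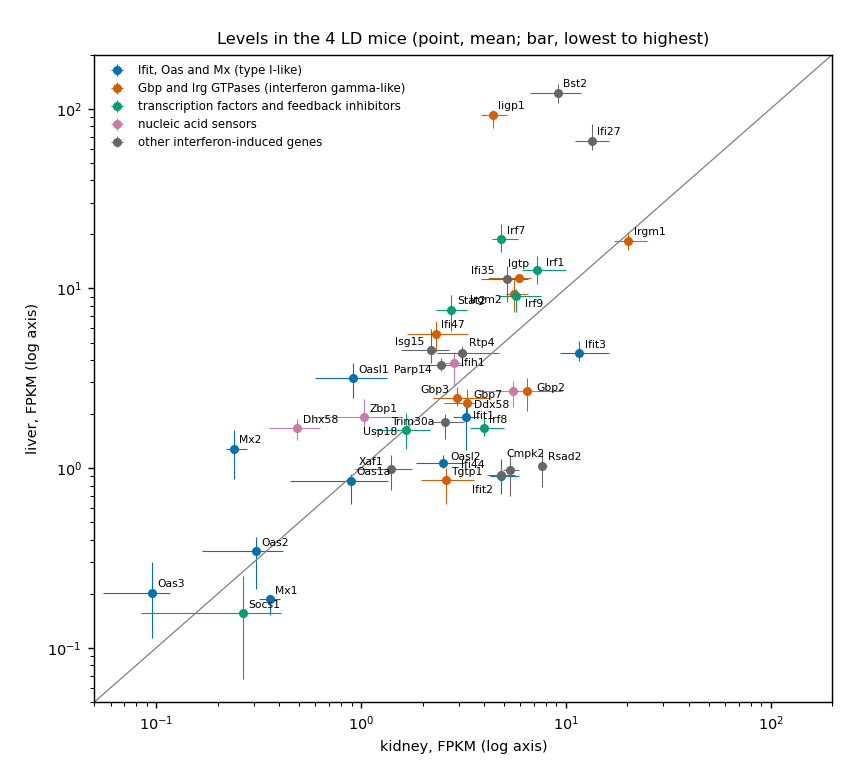
Mean FPKM of the 41 members in the 4 LD livers against the 4 LD kidneys, on log axes, with bars from the lowest to the highest mouse and colours by role. Iigp1, Bst2 and Ifi27 lie far above the line of equal levels, and Rsad2, Cmpk2, Ifit2 and Ifi44 lie below it.

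Of the interferon genes themselves, 20 of 21 ligands, including Ifnb1 and all Ifna genes, were listed at 0 in all 16 libraries. Ifng had at most 3 fragments in a liver, in A94 (0.109 FPKM). In the kidney it had 17.5 fragments in A94 (0.737 FPKM) and at most 0.0921 FPKM in the others. The depth allows no statement on ligands below these levels.

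Of the receptors and signalling genes, 4 of 28 tested in the liver and 1 of 31 in the kidney had an unadjusted p under 0.05 in limma, all higher in the ADV condition, and none passed the adjusted threshold. Of all genes, 8.65% in the liver and 1.75% in the kidney were higher at this threshold, and without A94 the counts of the list were 2 and 0. Tlr3, a receptor for double-stranded RNA, had 0.970, 1.11, 0.991 and 1.12 FPKM in the LD livers and 1.56, 1.65, 2.78 and 2.03 FPKM in the ADV livers. All 4 ADV livers were higher, with a log2 fold change of 0.84 (SE 0.19, unadjusted p = 0.00156, adjusted p = 0.290 in limma) and of 0.68 without A94. The next genes of the list were Tlr7 and Ikbke in the liver, at log2 fold changes of 0.82 and 0.52, and of 0.53 and 0.42 without A94. In the kidney, Ifnar2 and Nlrc5 were at 0.53 and 0.85, and at 0.45 and 0.28 without A94.

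Of other Gbp and Irg genes, 1 of 11 in the liver (Gbp8, log2 fold change 1.04, unadjusted p = 0.0261 in limma, and 0.60 without A94) and 0 of 10 in the kidney had an unadjusted p under 0.05. Gbp9 and Gbp4 followed in the liver, and Gvin1, Gbp10 and F830016B08Rik led the list in the kidney. Of other Ifit, Oas and Ifitm genes, 0 of 10 did in either organ, with Ifitm2, Ifi27l2a and Ifi27l2b first in the liver and Ifitm3, Oas1b and Ifi27l2a in the kidney. Of other interferon-stimulated genes, 10 of 54 did in the liver (background 8.65%) and 2 of 55 in the kidney (background 1.75%). None were lower, none passed the adjusted threshold, and without A94 the counts were 11 and 0. Lgals9 (galectin-9), a sugar-binding regulator of immune cells, had 156, 147, 123 and 147 FPKM in the LD livers and 185, 207, 226 and 220 FPKM in the ADV livers. Here A94 did not stand apart, and the log2 fold change was 0.55 (SE 0.11, unadjusted p = 0.000602, adjusted p = 0.234 in limma) and 0.51 without A94. Trim21 and Trim12c followed at 0.51 and 0.85, or 0.40 and 0.54 without A94. Slfn9, Cxcl9 and Mlkl led the list in the kidney at 1.0, 1.53 and 0.91, or 0.97, 0.99 and 0.63 without A94.

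Markers of immune cells moved with the members in A94. Over the whole lists, T cell markers (13 genes) summed to 25.7 FPKM in the A94 liver against 2.11 to 3.99 FPKM in the LD livers, markers of NK and cytotoxic cells (10) to 18.5 against 1.85 to 3.16, B cell markers (10) to 72.1 against 1.66 to 3.46, plasma cell markers (7 of 9 in the table) to 892 against 174 to 209, dendritic cell markers (9) to 10.9 against 1.63 to 2.76, and neutrophil markers (9) to 117 against 7.34 to 12.9. In the A94 kidney T cell markers summed to 54.3 FPKM against 5.95 to 12.1 FPKM, NK and cytotoxic markers to 18.1 against 2.73 to 4.41, B cell markers to 69.7 against 2.25 to 5.77, plasma cell markers to 612 against 94.1 to 139, dendritic cell markers to 17.9 against 4.67 to 9.14, and neutrophil markers to 25.7 against 1.5 to 3.48. In the other 3 ADV livers, T cell markers stayed within the LD range (3.33 to 3.73 FPKM), while NK and cytotoxic markers lay above it in A75 (3.45 FPKM) and A91 (3.65 FPKM), B cell markers in A75 (4.18 FPKM) and neutrophil markers in A75 (16.7 FPKM). In the kidney, the sums of A75 lay above the LD range for NK and cytotoxic (5.85 FPKM), B cell (6.35 FPKM), plasma cell (147 FPKM), dendritic cell (9.66 FPKM) and neutrophil markers (7.99 FPKM). In the A115 kidney, where 19 members lay below all LD kidneys, the sums lay below the LD range for B cell (1.46 FPKM), plasma cell (56.2 FPKM) and dendritic cell markers (3.87 FPKM), and slightly above it for neutrophil markers (3.53 FPKM). In the A115 liver, neutrophil markers lay below the LD range (4.78 FPKM). No immune marker was at 0 in all livers, whereas Clec4f, Mpo and Camp were at 0 in all kidneys. The kidney marker sum of the A94 liver was 1.39 FPKM, nearly all of it Umod at 1.33 FPKM, against 0.0253 to 0.138 FPKM in the other livers.

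Macrophage and monocyte markers (15 genes) lay above the LD range in the livers of A75, A94 and A115, and inside it in A91. They summed to 330, 256, 734 and 277 FPKM in A75, A91, A94 and A115, against 180 to 264 FPKM in the LD livers, and 10 of 15 had an unadjusted p under 0.05 in limma and were higher (background 8.65%), and 11 without A94 (background 8.84%). None passed the adjusted threshold. In the kidney they summed to 307, 103, 678 and 104.1 FPKM against 82.0 to 246 FPKM, the highest LD value being that of L86, and 0 of 11 tested had an unadjusted p under 0.05. The part of these cells in the levels of the members was not tested.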

How the data were processed

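The authors trimmed adaptors with Trimmomatic, mapped reads to GRCm38/mm10 with STAR (version 2.5.4b in the submitters' processing notes), removed reads with a mapping quality below 10 with SAMtools and used Homer to quantify the exons of UCSC known canonical gene models. The deposited values are FPKM, although their columns are headed RPKM, each library divided by its own total and not scaled further. Whether the strand was used in counting is not given in the sources used here, so that Dhx58 and Gbp2, which have an antisense transcript, may hold its reads. Values times exon length and library total came out in steps of 0.5 fragment (100% within 0.01). DESeq2, which the study used, needs counts and was not run.

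Genes with a mean of FPKM times exon length in kilobases above 0.5 over the libraries of an organ were tested with limma 3.58.1 in R 4.3.3 (lmFit, eBayes with trend) on log2(FPKM + 0.1), 4 ADV against 4 LD mice per organ, with Benjamini-Hochberg adjustment over all genes. The members and gene lists were chosen with earlier results of these data known. Values in every library are given for members whose groups did not overlap or whose unadjusted p was under 0.05, for the smallest p and the highest mean of each role group and organ, and for a few further members chosen after their values were seen, among them Tgtp1, Usp18, Isg15, Ifi44 and Socs1 in the liver and Iigp1, Tgtp1, Rsad2, Bst2, Socs1 and Dhx58 in the kidney. Genes of the 5 pathway lists are named when among the 3 smallest p of their list, of which 1 in the kidney is not reported here. Across genes, the deviation of a mouse from its group mean in the liver correlated with that in the kidney by 0.0982 to 0.185 in the LD mice and by −0.0242, 0.334, 0.553 and 0.0423 in A75, A91, A94 and A115. The pairing comes from the mouse number in the sample titles. Alternatives were pseudocounts of 0.5 and 1, no filter or a mean FPKM above 1, median-ratio scaling, quantile normalization, a joint fit of the 2 organs, the same with a replicate block for the mouse, limma-voom on recovered fragments, each mouse left out, and A115 left out with median-ratio scaling.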

Additional observations from a re-analysis of the deposited data

Results flagged for a closer look

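Within groups of 4, on log2(FPKM + 0.1), a mouse was marked where its gap to the nearest other made up a larger part of the range of the group than the 95% critical value of Dixon allows, which chance gives in about 1 of 20 groups. In the liver this was A94 for 14 of 40 members and for 6.05% of all genes. Given as FPKM, A94 was at 20.1 FPKM for Ifit1, 5.53 for Ifit2, 36.1 for Ifit3, 1.79 for Mx1, 8.93 for Gbp7, 82.3 for Igtp, 44.0 for Irgm2, 282 for Iigp1, 9.87 for Irf8, 26.3 for Usp18, 47.1 for Isg15, 10.5 for Ifi44, 7.52 for Xaf1 and 9.60 for Trim30a. In the kidney it was A94 for 2 of 41 members and 0.318% of all genes, Igtp at 77.9 FPKM and Irgm2 at 41.9 FPKM. Among the LD mice, L86 was low in the liver for Ifit1 at 1.26 FPKM and Iigp1 at 78.5 FPKM (1.14% of all genes), L63 was low in the liver for Mx1 at 0.152 FPKM and Oas1a at 0.630 FPKM (0.795%), and L63 was low in the kidney for Gbp7 at 2.54 FPKM (0.637%). The same mouse stood apart in most of these, so that the marks are not independent of each other.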

How the results depend on the processing

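No member passed the adjusted threshold in the liver under any alternative run, and in the kidney only Ifi27 did, without A115 (1 member, with or without median-ratio scaling, range 0 to 1 over the mice left out). The unadjusted count of the liver, 4, was 1 with both organs in 1 fit (6.79% of all genes called) and 1 with a replicate block for the mouse (6.83%), and 1 to 10 without single mice. That of the kidney, 0, was 2 with both organs in 1 fit (4.76%), 2 with the replicate block (4.87%), 1 after quantile normalization (2.88%), 9 without A115 and with median-ratio scaling (36.1%), and 0 to 9 without single mice. The replicate block changed no other call. The median log2 fold change of the Ifit, Oas and Mx genes in the liver lay between −0.070 and 0.89 without single mice. Uncalled log2 fold changes turned negative for Oas2 in the liver after quantile normalization (−0.030), for Gbp7 (−0.074) and Ifi44 (−0.066) in the kidney without A115 and with median-ratio scaling, and for Dhx58 in the kidney with limma-voom (−0.49) and quantile normalization (−0.14). Without single mice they turned negative without A94, in the kidney also without A75 for Dhx58 and without L63 for Cmpk2. In the liver the ranges over the mice left out were −0.089 to 1.04 for Ifit3, −0.40 to 0.76 for Mx1, −0.0055 to 0.61 for Mx2, −0.051 to 1.15 for Oas1a, −0.28 to 0.61 for Oas2, −0.13 to 0.88 for Oas3, −0.10 to 1.09 for Oasl2, −0.15 to 0.96 for Gbp3, −0.18 to 0.84 for Irf7, −0.21 to 1.06 for Isg15, −0.10 to 0.87 for Rsad2 and −0.41 to 0.97 for Ifi44. In the kidney they were −0.14 to 0.78 for Ifit1, −0.28 to 0.50 for Mx1, −0.075 to 1.18 for Oas1a, −0.027 to 1.06 for Oas3, −0.21 to 1.24 for Irf7, −0.10 to 1.12 for Irf8, −0.21 to 0.88 for Usp18, −0.63 to 1.06 for Dhx58, −0.18 to 1.24 for Zbp1, −0.13 to 1.55 for Isg15, −0.16 to 0.98 for Ifi35, −0.39 to 1.56 for Bst2 and −0.24 to 0.22 for Cmpk2. The causes were not tested. Oas3, Mx1, Socs1 and, in the kidney, Mx2, Oas2 and Dhx58 rest on few fragments, and with 4 mice per group only large changes relative to the spread in the ADV condition could be called.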
